A study of Mus musculus with 4 samples.

Results

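Type I interferon response genes were followed as a group of 32 named genes across the cell types of the injured spinal cord of aged mice. The members were taken by symbol from a list of interferon-stimulated genes, and all 32 were found among the 53647 genes of the count tables, each with at least 1 UMI (unique molecular identifier, 1 counted RNA molecule). All libraries were of the inbred mouse strain C57BL/6J at an aged stage, 28 days after spinal cord injury, and each was made from a 2 mm segment that held the lesion. One group of mice was given IgG (2 libraries). The other was given anti-CD8 (2 libraries), an antibody to the CD8 molecule that marks cytotoxic T cells. All 4 libraries were therefore from aged, injured and antibody-treated mice, and the labels give neither the dose of the antibodies nor the number of mice in a library. After perfusion the tissue was dissociated and cleared of myelin, per the labels' protocols, and the 3′ ends of transcripts were counted in droplets. The libraries of a group are called biological replicates in the series' design. The p-values below therefore set a difference between the groups against the spread between these libraries.

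Cells make type I interferons, among them interferon beta and the interferon alphas, when they sense foreign or misplaced nucleic acid. The secreted interferon binds the receptor chains Ifnar1 and Ifnar2, the kinases Jak1 and Tyk2 are switched on, and a complex that holds Stat2 and Irf9 binds a DNA motif, the interferon-stimulated response element (ISRE), in the promoters of the response genes. In the central nervous system, microglia with high levels of these genes are known from injury, infection and ageing.

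The tables held 152457679 to 170539226 UMIs per library, and 6108, 6290, 7481 and 7816 cells were kept in IgG replicates 1 and 2 and anti-CD8 replicates 1 and 2. The 4 libraries are given in this order throughout. Cells were grouped by clustering without the interferon genes, and a cluster took a name from marker genes, so "microglia" and the other names stand for microglia-like and so on. The largest named classes were microglia (11807 cells), Spp1-high myeloid cells (6505), T cells (1724), endothelial cells (1679) and macrophages (1658). A further 1672 cells lay in clusters that took no name, and they were counted in the sums over all cells. Between 5 and 16 cell barcodes were shared by any pair of libraries. Cd8a, which encodes a chain of the antibody's target, was at 335, 244, 176 and 99.1 CPM (the UMIs of a gene scaled to a common total per class) in the T cells of the 4 libraries, and Cd8b1, the other chain, at 702, 499.8, 274 and 169 CPM, so both anti-CD8 libraries were below both IgG libraries.

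Promoters of the members were read first, because the ISRE is the sequence through which the pathway acts on these genes. RefSeq promoter windows (build GRCm38.p6, 250 bases before to 50 after the annotated start) were found for 22 of the 32 members, as 26 windows. The ISRE core GAAANNGAAA, read on both strands, was present in 15 of the 26 windows (57.7%) and in 3.44% of all 32851 windows. By gene, 14 of 22 members held it. A second motif of interferon signalling, GAS (TTCNNNGAA, both strands), was present in 4 of 26 member windows (15.4%) and in 8.30% of all windows. The stretches below are 5′ to 3′ on the gene's strand with the ISRE core matches in capitals. Runs of T and C are the same motif read on the other strand. The stretches were chosen, among windows with a match, to show some kinds of member. Shown are the ubiquitin-like modifier Isg15, 3 members of the IFIT family, the synthetase Oas1a, and the antiviral factors Bst2, Rsad2 and Ifitm3. Transcription factors and nucleic acid sensors are not among them.
Isg15 (chr4:156200860-156200911, minus strand): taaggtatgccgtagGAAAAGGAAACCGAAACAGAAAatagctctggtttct
Ifit1 (chr19:34640770-34640828, plus strand): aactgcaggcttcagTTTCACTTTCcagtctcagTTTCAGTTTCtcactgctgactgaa
Ifit3 (chr19:34583358-34583431, plus strand): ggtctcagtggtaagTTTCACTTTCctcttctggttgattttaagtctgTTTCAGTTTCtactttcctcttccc
Ifit3b (chr19:34607754-34607827, plus strand): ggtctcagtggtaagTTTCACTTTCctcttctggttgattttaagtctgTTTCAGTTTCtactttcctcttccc
Oas1a (chr5:120907515-120907560, minus strand): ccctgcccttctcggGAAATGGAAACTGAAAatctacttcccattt
Bst2 (chr8:71537572-71537617, minus strand): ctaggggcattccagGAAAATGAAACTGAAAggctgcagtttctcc
Rsad2 (chr12:26456548-26456587, minus strand): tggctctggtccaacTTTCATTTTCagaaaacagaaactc
Ifitm3 (chr7:141010701-141010757, minus strand): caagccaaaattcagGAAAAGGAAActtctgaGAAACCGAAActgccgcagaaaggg
The match nearest the start began at position -66 relative to the annotated start in Isg15, -85 in Ifit1, -14 in Oas1a and 2 in Ifitm3. Overlapping matches, as in Isg15, Oas1a and Bst2, appear as 1 longer run of capitals. The 74 bases shown for Ifit3 and Ifit3b were identical, though they begin their nearest match at -122 and -154, and reads of these neighbouring, near-identical genes may be split between them by the counting. No match was found in the windows of Cmpk2, Ifi44, Ifit2, Irf7, Irf9, Oasl1, Oasl2 and Xaf1, which says only that these letters are not in those windows.

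Endothelial cells carried the highest level of most members, and the pattern differed from gene to gene (the map of levels by class). Over 10 classes with at least 17 cells in every library, the mean CPM of 4 libraries was highest in endothelial cells for 21 members, in T cells for 6, in ependymal cells for 2, in microglia for 2 and in macrophages for 1. The 4 libraries of the top class lay above all 4 of the next class for 11 of the 21 endothelial genes and, outside these, for Ifitm3 and Bst2. The endothelial sums also held the 10 microglia markers at 1474 to 1619 CPM, against 6534 to 7217 in microglia. In T cells this sum was 157 to 270 CPM. Which genes of the list carry the sum in endothelial cells is not given here. How much of it came from microglia, and its part in the endothelial levels, was not tested. These CPM levels are not divided by gene length and are compared across classes for 1 gene at a time.

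**Figure D1:**
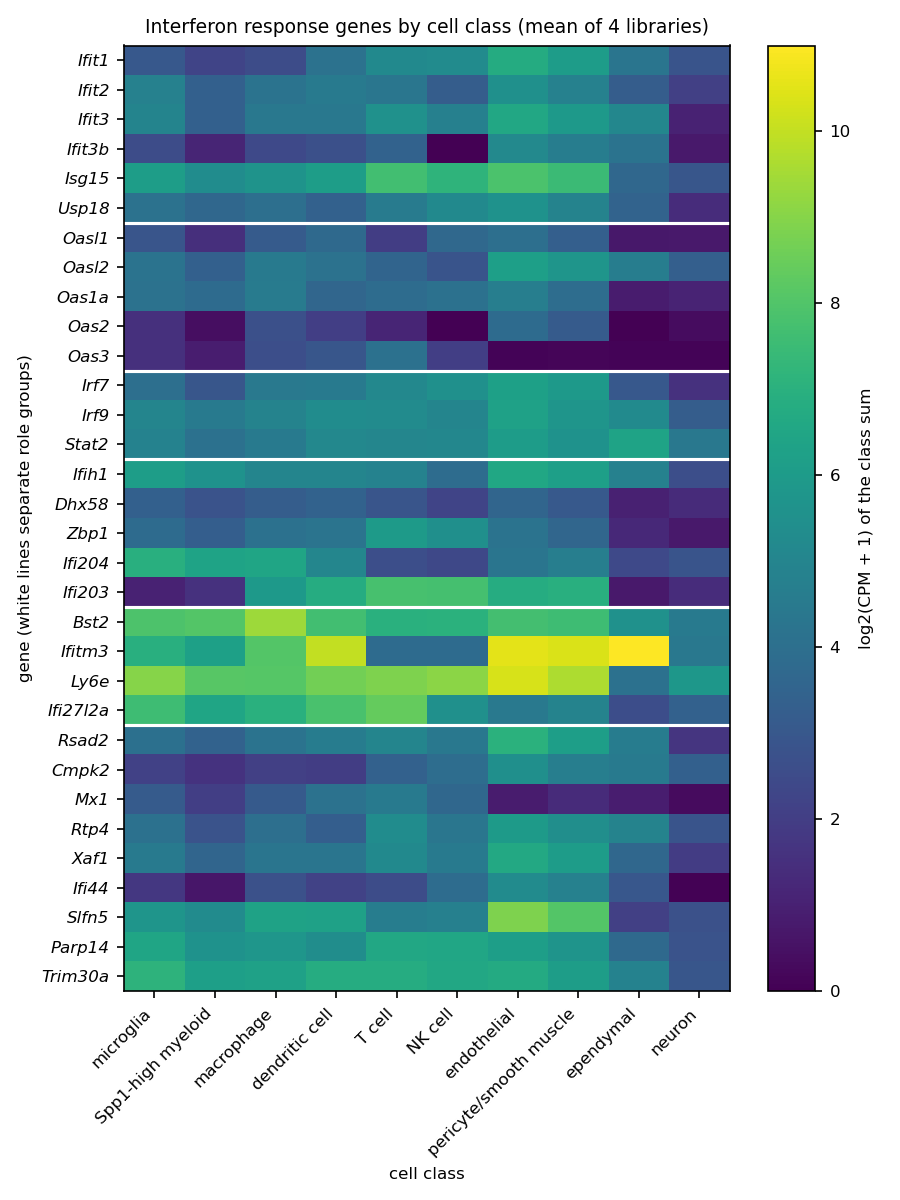
Map of the 32 genes (rows, grouped by role) in 10 cell classes (columns); colour is log2(CPM + 1) of the UMIs summed per class, as the mean over 4 libraries. The endothelial column is the brightest for 21 genes, Ifitm3 peaks in ependymal cells at 2040 CPM, and Oas3 and Mx1 are near 0 in endothelial cells.

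Among the membrane-acting restriction factors, Ifitm3, which blocks entry of enveloped viruses, was at 2040 ± 177 CPM (SD, n = 4 libraries) in ependymal cells and 1477 ± 123 in endothelial cells, and the libraries of the 2 classes did not overlap. It was at 123 ± 47.0 in microglia and 13.3 in T cells, the lowest class. Ly6e, a membrane protein that limits viral fusion, was highest in endothelial cells (1302 ± 67) and lowest in ependymal cells (16.1), so Ifitm3 and Ly6e had opposite places in ependymal cells. Bst2, which tethers budding virus to the cell surface, was highest in macrophages (673 ± 34.9), well apart from Spp1-high myeloid cells (262 ± 21.1). Ifi27l2a, a small mitochondrial membrane protein, was highest in T cells (333 ± 176) and overlapped with dendritic cells (228 ± 140). In the sum over all cells these 4 and Trim30a, a negative regulator of Toll-like receptor signalling, were the 5 members with the highest CPM, from 433 ± 52.1 for Ly6e to 99.1 ± 22.9 for Trim30a.

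Of the nucleic acid sensors, Ifi204 and Ifi203, of the same gene family, were highest in different classes. Ifi204 was highest in microglia (122 ± 45.1) and next in macrophages (87.2 ± 19.5), with overlapping libraries, and was lowest in NK cells (4.28). Ifi203 was at 222 ± 78.3 in T cells and 216 ± 85.4 in NK cells, which did not differ beyond their spread. It was at 1.05 ± 0.444 in microglia. The NK-cell sums also held the 10 T-cell markers at 3978, 2855, 2000 and 2336 CPM, against 5506 to 6161 in T cells. The part of this in the NK-cell level of Ifi203 was not tested. Zbp1, a sensor of Z-form nucleic acid, was also highest in T cells (62.0 ± 37.5). Ifih1, the sensor MDA5 of long double-stranded RNA, was highest in endothelial cells (91.6 ± 13.5), apart from pericytes (72.0 ± 4.90).

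The synthetase family, whose products switch on RNase L, also differed between classes. Oas2 was highest in endothelial cells (13.5 ± 2.27 CPM). Oas3 was highest in T cells (16.3 ± 10.7) and Mx1, a dynamin-like GTPase, likewise (21.7 ± 15.8). In endothelial cells Oas3 was at 0.0710 and Mx1 at 0.782 CPM. The IFIT genes, whose products bind viral RNA, were highest in endothelial cells, with Ifit1 at 109 ± 33.6 and Ifit3 at 95 ± 47.8 CPM. Pericytes with smooth muscle came next (65.9 ± 6.64 and 58.6 ± 16.9), and their libraries overlapped those of endothelial cells for Ifit3 but not for Ifit1. That pericyte class carried the 8 endothelial markers, none at 0 UMIs, at a summed 7752 to 8196 CPM beside its own markers. In its 2 clusters with few endothelial markers, a subset chosen after seeing the data, the 12 core genes defined below summed to 342, 151, 120 and 163 CPM, against 716, 657, 580 and 628 in the whole class. The pericyte levels of the whole class were therefore higher than those of this subset in each library.

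A core of 12 members (Isg15, Ifit1, Ifit2, Ifit3, Ifit3b, Irf7, Oasl1, Oasl2, Rsad2, Usp18, Rtp4 and Cmpk2) was summed to follow the response in each library. In microglia the summed core was 508 CPM in IgG replicate 1 and 139 in IgG replicate 2, and 106 and 164 CPM in the anti-CD8 libraries. In T cells it was 1007, 290, 213 and 355 CPM. In endothelial cells it was 1376, 756, 840 and 888 CPM. IgG replicate 1 was the highest library in each of these classes, while IgG replicate 2 lay between the anti-CD8 libraries in microglia and T cells and below both in endothelial cells (the plot of the core by class and library). The ratio of IgG replicate 1 to IgG replicate 2 was 3.65 in microglia, 3.47 in T cells, 2.62 in macrophages, 2.24 in Spp1-high myeloid cells, 1.96 in ependymal cells and 1.82 in endothelial cells. It was 1.09 in pericytes with smooth muscle and 0.89 in neurons. NK cells (965, 140, 170 and 192 CPM) and dendritic cells (609, 67.3, 103 and 132) had only 17 and 22 cells in IgG replicate 1.

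**Figure D2:**
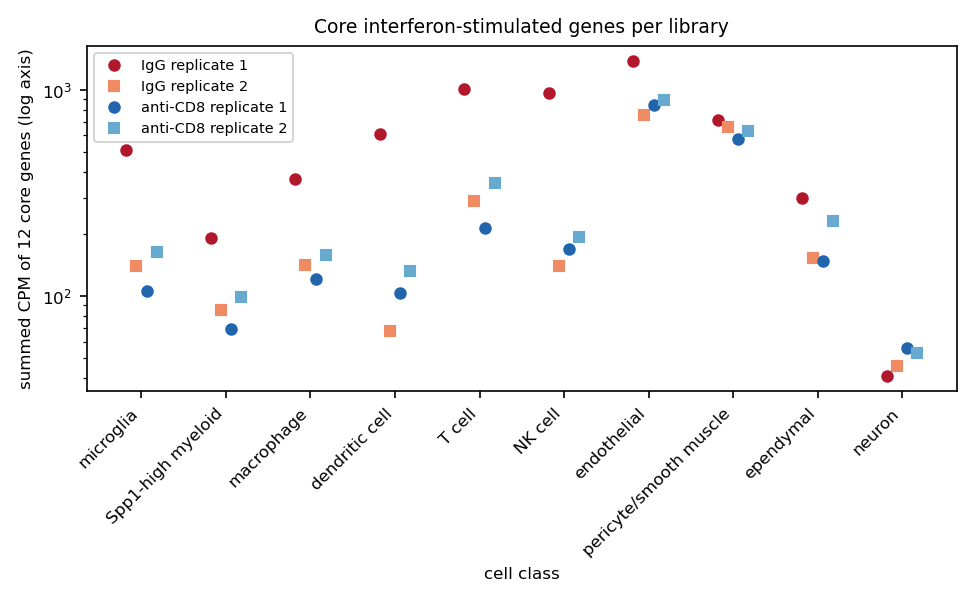
Summed CPM of the 12 core genes (log axis) in each of 10 cell classes; each point is 1 library. IgG replicate 1 (dark red circles) is the highest point in every class but neurons, for example 508 against 106 to 164 CPM in microglia.

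The same library was the highest of the 4 for nearly every member. On TMM-normalised CPM, IgG replicate 1 had the highest value for 32 of 32 members in microglia, against 29.8% of all 17818 genes tested there. It had the highest value for 27 of 29 members in T cells (27.6% of all genes), 32 of 32 in the sum over all cells (23.7%), 31 of 32 in macrophages (28.8%), 31 of 32 in Spp1-high myeloid cells (26%) and 29 of 30 in endothelial cells (28.8%). In pericytes with smooth muscle it was the highest for 13 of 30 members (25.6%), in ependymal cells for 12 of 24 (24.8%), in dendritic cells for 11 of 15 (28.9%) and in neurons for 1 of 17 (25%). Within microglia the ratio between the 2 IgG libraries ran from 1.20 for Bst2 to 10.3 for Ifi44, a cytoplasmic response protein, and was 8.02 for Ifit3 and 8.59 for Ifit3b. In the microglial sums the 7 neutrophil markers were together at 466 CPM in IgG replicate 1 against 237 to 250 elsewhere, and the 8 endothelial markers at 95 and 67.8 to 80.1; none of either list was at 0 UMIs, and their part in the result was not tested.

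IgG replicate 1 also had the largest share of microglia with several core genes. Each cell was thinned to 2000 UMIs, so that cells were compared at 1 depth (20, 7, 28 and 14 shallower microglia were left out), and a cell with at least 1 UMI of 4 or more core genes was called interferon-high. Of the microglia, 169 of 2784 were interferon-high in IgG replicate 1 (6.07%, exact 95% binomial interval 5.21 to 7.02) and 19 of 2406 in IgG replicate 2 (0.790%, 0.476 to 1.23). In the anti-CD8 libraries they were 17 of 3204 (0.531%, 0.309 to 0.848) and 25 of 3344 (0.748%, 0.484 to 1.10). IgG replicate 1 thus held 169 of the 230 interferon-high microglia (73.5%), and the intervals of the other 3 libraries overlapped. These intervals cover counting error only. The cut divides a continuous range: 121 microglia had exactly 3 core genes and 76 exactly 4. Without thinning the shares were 24.5%, 10.4%, 4.12% and 8.67%.

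**Figure D3:**
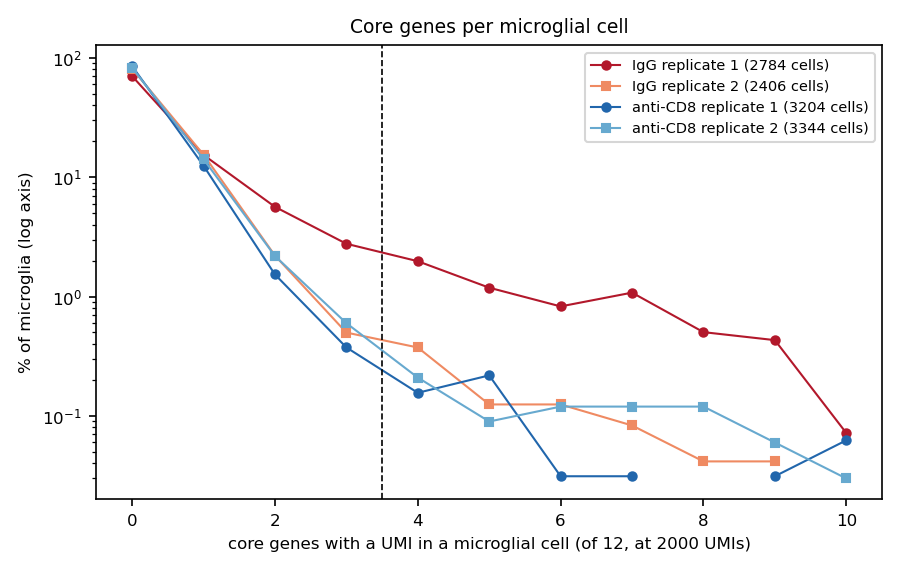
Share of microglia (log axis, %) by the number of core genes with a UMI at 2000 UMIs per cell, 1 line per library; the dashed line is the cut at 4 genes and counts of 0 are not drawn. The line of IgG replicate 1 leaves the others from 2 genes upwards, and 6.07% of its microglia lie right of the cut against 0.531% to 0.790%.

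Interferon-high microglia held 57.2% of the microglial core UMIs in IgG replicate 1, against 15%, 18.9% and 21.3%. In microglia below the cut the summed core was 231 CPM in IgG replicate 1, against 119, 86.4 and 130; since the same genes set the cut, these sums are lower by construction. Isg15, one of the genes that define the cut, was at 963, 657, 861 and 1072 CPM in interferon-high microglia and at 66.3, 48.5, 40.4 and 57.0 CPM in microglia below it. When the interferon genes were kept for the clustering, a cluster of 646 microglia led by them formed, with 441, 64, 45 and 96 cells.

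T cells and endothelial cells also had interferon-high cells. In T cells they were 32 of 330 (9.70%, 6.73 to 13.4) and 9 of 688 (1.31%, 0.600 to 2.47) in IgG, and 0 of 387 (upper limit 0.949%) and 7 of 241 (2.90%, 1.18 to 5.89) in anti-CD8. Endothelial cells had 14.8%, 7.76%, 8.41% and 7.60%, and the intervals of the last 3 libraries overlapped. Below the cut, which the same genes set, the endothelial core summed to 671, 604, 753 and 678 CPM. Neurons had 0 in 88, 162, 116 and 118 cells, which allows shares of up to 2.25% to 4.11%.

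Whether the response genes differ between the antibodies was tested in each class. The test was edgeR's quasi-likelihood test on UMIs summed per class and library, with Benjamini-Hochberg adjustment over all genes of a class, and a log2 fold change below 0 means a lower level in anti-CD8. No member passed an adjusted p of 0.05 in any of 9 classes or in the sum over all cells. Of all genes tested, the percentage called in either direction was 0.672 in T cells and 0.151 in neurons, and 0 in the other 7 classes and the sum. All 32 members passed edgeR's filter on low counts in the sum over all cells, microglia, Spp1-high myeloid cells and macrophages. In T cells 29 passed, in endothelial cells and pericytes 30, in ependymal cells 24, in neurons 17 and in dendritic cells 15. At an unadjusted p under 0.05, 18 members were lower in microglia (4.22% of all genes), 12 in Spp1-high myeloid cells (3.77%), 10 in macrophages (2.78%), 5 in pericytes (2.45%), 4 in endothelial cells (2.42%), 4 in ependymal cells (1.78%), 0 in dendritic cells (3.27%), 0 in neurons (3.77%) and 2 in the sum over all cells (2.41%). In T cells 16 were lower (4.86% of all genes) and 1 higher (7.15%), and in neurons 3 were higher (5.13%). DESeq2 called 1 member lower in Spp1-high myeloid cells (0.17% of all genes), 2 in T cells (0.259%) and 1 in macrophages (0.0244%).

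Most members had a log2 fold change below 0, as did 48.9% of all genes in the sum over all cells, 50.3% in microglia, 51.5% in T cells, 50.6% in Spp1-high myeloid cells and in endothelial cells, 49.5% in macrophages and 49.4% in pericytes. The median log2 fold change was -1.04 in microglia (32 of 32 members below 0), -0.98 in T cells (27 of 29), -0.64 in Spp1-high myeloid cells (31 of 32), -0.40 in macrophages (31 of 32), -0.23 in endothelial cells (28 of 30) and -0.20 in pericytes (27 of 30). It was -0.26 in ependymal cells (16 of 24, against 51.1% of all genes) and -0.38 in dendritic cells (12 of 15, against 50.5%). It was -0.62 in the sum over all cells, where the median of all 23685 genes was 0.00. Fewer interferon-rich cells and less RNA per cell cannot be told apart in such sums. Without IgG replicate 1 the medians were -0.10 in microglia, -0.40 in T cells, -0.09 in Spp1-high myeloid cells and 0.03 in macrophages. They were 0.10 in endothelial cells and 0.00 over all cells (the plot of fold changes with and without this library). The median was 0.16 in ependymal cells and 0.27 in dendritic cells. In pericytes it stayed near its value with all libraries, at -0.17. Without IgG replicate 2, which leaves IgG replicate 1 as the lone IgG library, 29 members were called lower in microglia (1.09% of all genes in that fit) and 24 of 31 in T cells (1.07%).

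**Figure D4:**
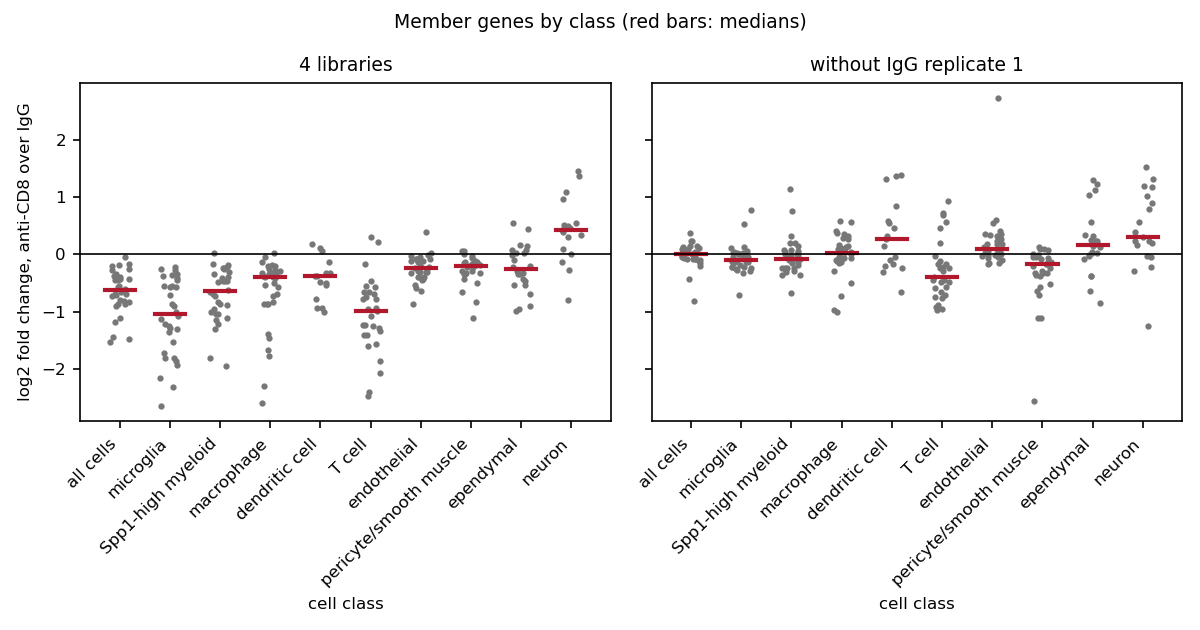
Log2 fold change (anti-CD8 over IgG) of each member that passed the filter, by class; grey points are genes and red bars medians, with 4 libraries on the left and without IgG replicate 1 on the right. The microglial median goes from -1.04 to -0.10 and that of all cells from -0.62 to 0.00.

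In microglia, the 6 genes of the IFIT and Isg15 group had a median log2 fold change of -1.81, the 5 of the OAS family -1.35, and the 4 membrane-acting factors -0.44. Ifit3 was at 88.7 and 11 CPM in the IgG libraries against 9.16 and 13.3 in the anti-CD8 ones (log2 fold change -2.15, SE 0.78, edgeR adjusted p = 0.532). Isg15, the ubiquitin-like modifier, was at 120 and 53.0 against 43.1 and 62.8 CPM (-0.71). For both genes IgG replicate 2 lay between the anti-CD8 libraries, and only IgG replicate 1 was high. Usp18, the protease that removes Isg15 and damps the receptor, was at 35.7 and 12 against 8.17 and 12.5 CPM (-1.21). Ifit1 was at 18.7 and 3.5 against 2.45 and 3.91, Ifit2 at 73.0 and 13.2 against 9.73 and 14.9, and Ifit3b at 14.8 and 1.70 against 1.23 and 2.07 CPM. In each of these the anti-CD8 libraries lay on both sides of IgG replicate 2.

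The other core genes were likewise highest in IgG replicate 1. Irf7, the transcription factor that amplifies interferon production, was at 32.6 and 10.2 against 5.33 and 12.2 CPM (-1.29). Rsad2, the antiviral enzyme viperin, was at 39.97 and 8.71 against 5.60 and 9.28 CPM (-1.71), and Cmpk2, the kinase encoded beside it, at 9.25 and 1.35 against 0.873 and 2.06 CPM (-1.85). Oasl1, an inhibitor of Irf7 translation, was at 14.8 and 2.83 against 3.08 and 5.06 CPM, so IgG replicate 2 was the lowest library. Rtp4, a chaperone of membrane receptors, was at 34.9 and 11.5 against 6.95 and 12 CPM. Oasl2 was the core gene whose groups did not overlap, at 37.6 and 12.2 against 8.24 and 11.4 CPM (-1.35, SE 0.45, edgeR adjusted p = 0.522). Groups did not overlap, with anti-CD8 lower, in 7 of the 32 members in microglia, against 21% of all genes. The same held for 11 of 32 in Spp1-high myeloid cells (19.2% of all genes), 9 of 32 in macrophages (16.8%), 14 of 30 in pericytes (16.4%), 6 of 30 in endothelial cells (16.8%), 5 of 24 in ependymal cells (14.3%), 1 of 15 in dendritic cells (18.7%), 0 of 17 in neurons (17.9%) and 5 of 32 over all cells (15.8%).

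The member with the smallest p in microglia was Ifih1, at 85.5 and 67.3 in IgG against 56.8 and 61.8 CPM in anti-CD8 (-0.37, SE 0.11, edgeR adjusted p = 0.522). Its groups did not overlap, and its change was smaller than that of the IFIT genes. Ly6e in microglia was likewise apart, at 632 and 499 against 435 and 463 CPM (-0.34). In Spp1-high myeloid cells Ly6e was the member with the smallest p, at 358 and 301 against 217 and 253 CPM (-0.49, SE 0.10, edgeR adjusted p = 0.459). DESeq2 called it (adjusted p = 0.000477). In macrophages it was Rsad2, at 32.2 and 18.7 against 7.15 and 11.6 CPM (-1.39, SE 0.28, edgeR adjusted p = 0.635; DESeq2 adjusted p = 0.0222).

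In T cells the class was made up differently in the 2 groups: its largest cluster held 85% and 80.3% of the IgG T cells and 62.6% and 59.2% of the anti-CD8 T cells; values within that cluster are given beside the results for Ifi27l2a and Ly6e, and its part in the other T-cell results was not tested. Ifi27l2a was at 578 and 374 CPM in the IgG libraries against 148 and 254 in the anti-CD8 ones (-1.25, SE 0.26, edgeR adjusted p = 0.0771), and both IgG libraries lay above both anti-CD8 libraries. Leaving out IgG replicate 1 gave an edgeR adjusted p of 0.0417, leaving out anti-CD8 replicate 1 gave 0.0427, and it was 0.224 in the largest T-cell cluster alone, where its log2 fold change was -0.91 and it was at 589 and 398 against 200.3 and 337 CPM. Xaf1, a pro-apoptotic binding partner of XIAP, was at 75.8 and 34.1 against 15.8 and 19.8 CPM (-1.59, SE 0.38, edgeR adjusted p = 0.111), and DESeq2 called it. Ifi203 was at 339 and 230 against 147 and 183 CPM (-0.78) and Irf7 at 63.7 and 33.6 against 16.6 and 24.2 CPM (-1.23), again without overlap. Groups did not overlap, with anti-CD8 lower, in 16 of 29 members in T cells, against 21.6% of all genes. Ly6e was the 1 member with both anti-CD8 libraries higher (21.2% of all genes), at 472 and 379 against 526 and 519 CPM (0.30, edgeR adjusted p = 0.369). In the largest T-cell cluster alone Ly6e was at 423 and 325 against 400.03 and 384 CPM, and the groups overlapped. The T-cell sums also held the 8 endothelial markers at 53.0 and 64.3 CPM in the IgG libraries against 93.9 and 108 in the anti-CD8 ones, none at 0 UMIs, and the part of these cells in the result was not tested.

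In pericytes with smooth muscle Ifi44 was the member with the smallest p, at 37.4 and 37.5 against 13.9 and 21.1 CPM (-1.11, SE 0.21, edgeR adjusted p = 0.326). Its log2 fold change was -1.11 without IgG replicate 1 as well. The make-up of this class differed between libraries: a single cluster held 28, 69, 48 and 139 of its 141, 187, 207 and 254 cells. The part of this make-up in the Ifi44 values was not tested. In endothelial cells it was Ifi203, at 136 and 112 against 105 and 97.5 CPM (-0.29, SE 0.10, edgeR adjusted p = 0.916). In ependymal cells it was Ifih1 (35.2 and 33.2 against 19.7 and 22.9 CPM, log2 fold change -0.69, edgeR adjusted p = 0.534) and in dendritic cells Bst2 (222 and 280 against 194 and 161 CPM, -0.50, edgeR adjusted p = 0.790). In neurons the members lay higher in anti-CD8: 3 of 17 were below 0 (49.2% of all genes), 5 had both anti-CD8 libraries above both IgG libraries (18.9%), the median was 0.44, and Slfn5, a nuclear regulator of transcription, was at 3.21 and 2.86 against 7.83 and 8.74 CPM (1.45, edgeR adjusted p = 0.238). The neuronal sums held the 8 endothelial markers at 30.8 and 96.3 CPM in the IgG libraries against 221 and 154 in the anti-CD8 ones, and the 10 microglia markers at 235 and 341 against 366 and 588 CPM; none of either list was at 0 UMIs, and their part in the neuronal values was not tested.

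A direct test of whether the antibody difference in a class departed from that in microglia used an interaction term with the library as a block. In T cells, where 1.56% of all 18525 genes were called, 3 of 32 members were: Ifi27l2a was more negative than in microglia (difference of log2 fold changes -0.76, SE 0.13, edgeR adjusted p = 1.7e-05), Usp18 too (-1.19, SE 0.32, adjusted p = 0.0232), and Ly6e was more positive (0.59, SE 0.12, adjusted p = 0.000797). This Ly6e difference was fitted over the whole T-cell class, whose cluster make-up differed between the groups, and in the largest cluster Ly6e was no longer higher in both anti-CD8 libraries. The difference for Ifi27l2a was -0.87 to -0.66 in the fits that each left out 1 library. It too was fitted over the whole T-cell class. Within the largest cluster the T-cell log2 fold change of Ifi27l2a was smaller in size, as given above, and the interaction was not fitted there. In ependymal cells 3 members were more positive than in microglia (0.0684% of all genes called): Usp18 (1.68), Ifit3 (1.59) and Ifit3b (1.70). In neurons 3 were (0.383% of all genes): Slfn5 (2.14), Ifitm3 (1.76) and Oasl2 (1.68). The ependymal calls ended without either anti-CD8 library (adjusted p 0.859 to 1.00), and the neuronal calls ended without IgG replicate 1 (adjusted p = 1.00). No member was called in Spp1-high myeloid cells, macrophages, dendritic cells, endothelial cells or pericytes, where 0.0233% to 0.684% of all genes were.

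Upstream of the members, transcripts of the ligands were rare. Ifnb1, interferon beta, had 118, 86, 60 and 134 UMIs in all cells of the 4 libraries, and 55, 71, 58 and 72 of them in microglia. Thus Ifnb1 in microglia was not highest in IgG replicate 1, unlike the members. Its UMIs lay in few cells: 21, 34, 25 and 33 cells per library had any, and in Spp1-high myeloid cells single cells held 52 of 63 UMIs in IgG replicate 1 and 56 of 60 in anti-CD8 replicate 2. Endothelial and NK cells had 0 UMIs of Ifnb1 and T cells 1. Of the interferon alpha genes listed, 1 UMI (Ifna2) was counted in all libraries together. Ifng, the type II interferon, was found in T cells at 137, 144, 156 and 136 CPM, and these libraries overlapped.

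The receptor chains came next in the pathway. In microglia Ifnar1 was at 88.8 and 92.6 in IgG against 90.6 and 91.1 CPM in anti-CD8 (log2 fold change 0.00, SE 0.05, edgeR adjusted p = 0.989). Ifnar2 was at 270 and 259 against 248 and 265 CPM (-0.04, SE 0.06, edgeR adjusted p = 0.853). Both genes had overlapping groups, and IgG replicate 1 did not stand apart.

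Of the genes on the receptor, sensor, regulator and target lists, 1 was called in any class by edgeR. Ifngr2, a chain of the receptor for interferon gamma, rose in T cells from 30.6 and 29.9 CPM in IgG to 60.3 and 57.8 in anti-CD8 (0.97, SE 0.15, edgeR adjusted p = 0.0330), and its groups did not overlap. The call ended when doublets were kept (0.40, adjusted p = 0.204) and in the largest T-cell cluster alone (0.73, adjusted p = 0.637). Of 54 further interferon-stimulated genes, 51 were tested in microglia, 47 were below 0 and the median was -0.39; in T cells 44 of 47 were below 0 (median -0.57). None of them was called. The interferon-gamma induced list had 12 of 16 below 0 in microglia (50.3% of all genes, median -0.29). Groups did not overlap, with anti-CD8 lower, for 2 of these 16 (21% of all genes). Of this list, the GTPase Iigp1 was at 17.5 and 3.76 against 1.73 and 2.18 CPM (-2.44, SE 0.62, edgeR adjusted p = 0.496). Values of both lists without IgG replicate 1 are not given here. Of the 15 sensors and adaptors tested in microglia, 8 were below 0 (median -0.02).

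Across single microglia, the Pearson correlation of each gene's normalised value with the summed core was taken within each library, over 2804, 2413, 3232 and 3358 cells, and given as the mean of the 4; cells of a library share its depth and its background RNA. Among non-core members it was highest for Slfn5 (0.49), Ifi204 (0.42) and Xaf1 (0.42). Among the genes outside the list that are reported here it was highest for Ifi206 (0.44), Ifi211 (0.44), Rnf213 (0.42), Ifi209 (0.42), Ifi213 (0.41), Phf11b (0.38), Iigp1 (0.37), Phf11d (0.37) and Trim30d (0.35). Of these, Ifi206, Ifi209, Ifi211 and Ifi213 belong to the same gene family as the members Ifi203 and Ifi204. For Ifi206 the correlation was 0.723 in IgG replicate 1 against 0.313 to 0.381 elsewhere, and all 9 had their highest correlation in IgG replicate 1.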

How the data were processed

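The 4 libraries were made with the 10x 3′ protocol, and the authors deposited UMI counts per gene and barcode, made with Cell Ranger 7.1.0 on GRCm39 per the submitters' processing notes. Members and lists were chosen with earlier results of these data known. A barcode needed 300 genes and no more than 20% mitochondrial UMIs. The barcodes with the highest Scrublet scores were dropped as doublets. Their number was set in advance at 0.8% per 1000 cells, so larger libraries lost a larger share (332, 353, 511 and 562 barcodes). Clustering (scanpy 1.11.5, leidenalg 0.10.2) left out the interferon genes, and clusters were named from marker lists. Counts were summed per library and class (at least 20 cells in each library) and tested with edgeR 4.0.16 (R 4.3.3; TMM, filterByExpr, quasi-likelihood test, antibody as the only term). DESeq2 1.42.0 was an alternative. The edgeR step was tested on simulated data. Genes named are members called, the member with the smallest p per class, the 12 core genes in microglia, the 5 most abundant members, the ligands and receptors, pathway genes called, and the 10 strongest correlates in microglia; 1 gene that this rule names is not reported here. Other genes named were chosen after their values were seen. Promoters came from RefSeq, GRCm38.p6.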

Additional observations from a re-analysis of the deposited data

Results flagged for a closer look

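The antibody difference departed from that in microglia for 9 gene and class pairs by the edgeR interaction test; values are differences of log2 fold changes, that class minus microglia. In T cells Ifi27l2a differed by -0.76 (SE 0.13, edgeR adjusted p = 1.7e-05), and by -0.87 to -0.66 when 1 library was left out. Usp18 differed by -1.19 (SE 0.32), and was not called without IgG replicate 1 (-0.84) or without anti-CD8 replicate 1 (-0.68). Ly6e differed by 0.59 (SE 0.12), and was not called without IgG replicate 1 (0.55, adjusted p = 0.0725). The largest T-cell cluster held 85% and 80.3% of the IgG and 62.6% and 59.2% of the anti-CD8 T cells. There Ly6e was at 423 and 325 against 400.03 and 384 CPM, and the groups overlapped. The log2 fold change of Ifi27l2a was smaller in size in that cluster than in the whole T-cell class. The interaction was not fitted within the cluster.

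In ependymal cells the differences were 1.68 for Usp18 (SE 0.24), 1.59 for Ifit3 (SE 0.22) and 1.70 for Ifit3b (SE 0.30). None of the 3 was called without anti-CD8 replicate 1 (1.60, 1.67 and 1.87) or without anti-CD8 replicate 2 (1.77, 1.5 and 1.47), and Ifit3 (1.00) and Ifit3b (1.16) were not called without IgG replicate 1. The 6 Spp1-high myeloid markers in ependymal sums were at 534 and 230 CPM in the IgG libraries against 243 and 1206 in the anti-CD8 ones, none at 0 UMIs, and their part in the result was not tested.

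In neurons the differences were 2.14 for Slfn5 (SE 0.42), 1.76 for Ifitm3 (SE 0.38) and 1.68 for Oasl2 (SE 0.36). None was called without IgG replicate 1 (1.43, 0.86 and 1.51). Without IgG replicate 2, Slfn5 (2.85) and Oasl2 (1.81) were not called, nor was Oasl2 without anti-CD8 replicate 1 (1.22).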

How the results depend on the processing

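With 2 libraries a group, an exact permutation test of 1 value could not reach p < 0.05, so the calls rest on edgeR's shared spread. Leaving out 1 library leaves its group with a lone library, assumed to vary like the others. Members called lower then ranged from 0 to 9 over all cells, 0 to 29 in microglia, 0 to 20 in Spp1-high myeloid cells, 1 to 24 in T cells, 0 to 13 in macrophages, 0 to 10 in endothelial cells, 0 to 6 in ependymal cells and 0 to 4 in dendritic cells; 0 to 1 were called higher in ependymal cells and in neurons. Without IgG replicate 2 the counts were 9, 29, 20, 24, 12, 10, 6 and 1 in that order, where 0.0819%, 1.09%, 0.392%, 1.07%, 0.181%, 0.295%, 0.26% and 0.0565% of all genes were called lower, and 1.74% higher in neurons. Without anti-CD8 replicate 2 the counts were 13 in macrophages (0.997% of all genes), 7 in T cells (0.721%) and 4 in dendritic cells (0.642%), and the 1 higher in ependymal cells came without IgG replicate 1 (0.0806%). Without anti-CD8 replicate 1 macrophages had 5 (0.177%). Medians ranged from -1.05 to 0.00 over all cells, -1.57 to -0.10 in microglia and -0.97 to -0.09 in Spp1-high myeloid cells. They ranged from -1.54 to -0.40 in T cells, -0.84 to 0.03 in macrophages and -0.44 to 0.10 in endothelial cells. The range was -0.43 to 0.16 in ependymal cells and -1.41 to 0.27 in dendritic cells. It was -0.24 to -0.17 in pericytes and 0.31 to 0.70 in neurons. In microglia the log2 fold change ranged from -1.18 to 0.00 for Isg15, -2.98 to 0.03 for Ifit3, -1.86 to 0.53 for Oasl1 and -2.64 to 0.13 for Cmpk2, each highest without IgG replicate 1. Members whose antibody difference was called more positive than in microglia ranged from 0 to 9 in Spp1-high myeloid cells, 0 to 2 in T cells, 0 to 16 in endothelial cells and in pericytes, 0 to 14 in ependymal cells, 0 to 6 in macrophages and 0 to 7 in neurons; called more negative were 0 to 1 in Spp1-high myeloid cells and 1 to 4 in T cells. In these fits 0.0% to 1.36% of all genes were called. The highest more-positive counts in macrophages and neurons came without anti-CD8 replicate 2. Those in the other classes named came without IgG replicate 2, which leaves IgG replicate 1 as the lone IgG library. The median member difference was then 0.44 in Spp1-high myeloid, 1.11 in endothelial and 1.04 in ependymal cells, and 1.24 in pericytes. Without IgG replicate 1 it was -0.04, 0.31, 0.22 and -0.17. In T cells these medians were -0.07 and -0.31.

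DESeq2 called 1 member lower in Spp1-high myeloid cells (0.17% of all genes), 2 in T cells (Xaf1 and Ifi203; 0.259%) and 1 in macrophages (0.0244%). Without the filter on low counts, 30 were called lower in microglia (1.05% of all genes), 22 in T cells (1.12%) and 11 in macrophages (0.319%). In endothelial cells 5 were (0.243%), in dendritic cells 5 (0.264%), in ependymal cells 1 (0.49%) and in pericytes 1 (0.312%), and 1 was higher in neurons (1.29%). The smallest edgeR adjusted p of a member in microglia was then 3.5e-126. Yet in the filtered fit only 7 of the 32 members had both anti-CD8 libraries below both IgG libraries there, against 21% of all genes. The cause of this change in calls was not tested. At clustering resolution 2, 1 was called lower in T cells (0.209% of all genes) and 1 in macrophages (0.0113%). With the interferon genes kept for clustering, the median was -0.38 in Spp1-high myeloid cells, 0.08 in dendritic cells and -0.24 in macrophages, where 24 of 31 members were below 0 and 2 were lower at an unadjusted p under 0.05. The cause of these shifts was not tested. In subsets chosen after seeing the data, the largest T-cell cluster had 0 members called and a median of -0.93, and the pericyte clusters with few endothelial markers 0 called and a median of -0.14.

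The correlation of same-numbered deviations was -0.027 to 0.093. With 2 libraries a group these deviations mirror each other, so it cannot decide whether replicate numbers pair the libraries. In pericytes with smooth muscle the median UMIs per cell were 16566, 5736, 13700 and 3817, lower in replicate 2 of each group. With the replicate number as a block, 1 member was called lower in T cells (Xaf1; 0.346% of all genes), 1 lower in pericytes (Ifi44; 0.428%) and 1 higher in neurons (Ifitm3; 1.96%).

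Shares of interferon-high cells moved with the cut and depth. At 3 core genes they were 8.84%, 1.29%, 0.905% and 1.35% in microglia, 13.6%, 3.20%, 0.258% and 4.15% in T cells, and 23.0%, 17.2%, 19.3% and 17.1% in endothelial cells. At 6 they were 2.91%, 0.291%, 0.156% and 0.449% in microglia, 4.24%, 0.145%, 0% (0 of 387 cells, which allows up to 0.949% by the exact binomial interval) and 0.830% in T cells, and 5.74%, 2.01%, 1.40% and 1.66% in endothelial cells. At 5000 UMIs a cell they were 11.4%, 2.36%, 0.987% and 1.83% in microglia, 17%, 4.0%, 0.730% and 4.52% in T cells, and 34.3%, 26.8%, 30.9% and 28.0% in endothelial cells. Unthinned, they were 24.5%, 10.4%, 4.12% and 8.67% in microglia, 22.5%, 7.17%, 0.959% and 5.73% in T cells, and 69.2%, 66.0%, 70.0% and 67.3% in endothelial cells. Below the cut, which the same genes set, the summed core of IgG replicate 1 was 231 CPM in microglia, 446 in T cells and 671 in endothelial cells.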

Other observations

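Fibroblasts were too few to test, with 5, 11, 16 and 14 cells. Their summed core was at 183, 127, 362 and 509 CPM, so in these cells IgG replicate 1 was not the highest library. Ifnk and Ifnz, less studied type I interferons, had 12, 13, 9 and 12 UMIs and 8, 9, 11 and 11 UMIs over all cells of the 4 libraries.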
